A study of Mus musculus with 8 samples.

Results

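The genes examined were 10 genes of the immunoproteasome and of peptide presentation by MHC class I molecules, taken by their symbols from the 53700 genes of the count table: the immunoproteasome subunits Psmb8, Psmb9 and Psmb10, the peptide transport and loading genes Tap1, Tap2 and Tapbp, the class I chains B2m, H2-K1 and H2-D1, and the class I transactivator Nlrc5. Proteins made inside a cell are cut by the proteasome, the peptides are pumped into the endoplasmic reticulum by the TAP transporter, and there they are loaded onto a class I heavy chain paired with beta-2-microglobulin, which carries them to the surface for CD8 T cells to read. In immunoproteasomes the catalytic subunits of the constitutive particle are replaced by the products of Psmb8, Psmb9 and Psmb10. Interferons raise most of these genes together, and tumor cells often express them at a low level. All 10 genes passed edgeR's filterByExpr and were among the 13933 genes tested. Psmb8 passed only through its FIH-KO libraries and Psmb9 only through the FIH-KO libraries in normoxia, so these genes were admitted by the groups in which they were high.

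Expression was measured by RNA-Seq in Lewis lung carcinoma (LLC) cells, a mouse tumor line, either WT or FIH-KO. FIH (factor inhibiting HIF) is an oxygen-dependent asparaginyl hydroxylase encoded by Hif1an. It was targeted with a CRISPR/Cas9 ribonucleoprotein against exon 2 of the gene, and cells were then cloned by single-cell dilution, so that differences between a clone and its parent line cannot be told apart from the effect of the deletion. Culture lasted 16 hours in 21% O2, called normoxia, or 1% O2, called hypoxia, without interferon or immune cells named in the labels or methods, and each of the 4 groups had 2 libraries. Nothing states that the 2 libraries of a group came from separate cultures, and if they did not, the p values measure only technical spread.

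Library totals ran from 14519731 to 18177016 counts, and the libraries of each group differed by more than counting error (chi-square per degree of freedom 5.66 to 23.3). Hif1an held 1231 to 1609 counts in the 4 WT libraries and 584 to 784 in the 4 FIH-KO libraries, a log2 fold change of -1.20 (SE 0.12) in normoxia and -0.85 (SE 0.12) in hypoxia (adjusted p = 3.09e-05 and 0.000314, edgeR). The genes checked as carcinoma markers were mixed. The keratin genes Krt8 and Krt18 were high, with 1521 to 5579 counts of Krt8 per library, whereas the epithelial adhesion genes Epcam and Cdh1 held at most 1 count in any library. Vim, an intermediate filament gene on the same list that is not specific to carcinoma cells, was high as well. The leukocyte marker Ptprc held at most 3 counts in any library.

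Expression is given below as CPM, the counts divided by the library total and scaled by TMM factors, and a log2 fold change is FIH-KO over WT, or hypoxia over normoxia. A gene is said to have risen or fallen where its Benjamini-Hochberg adjusted p over all tested genes was under 0.05 in edgeR's quasi-likelihood test. In FIH-KO cells in normoxia 7 of the 10 genes rose and 0 fell, in a comparison that called 28.2% of all tested genes (15.2% as higher and 13% as lower). In hypoxia 5 rose (Psmb8, Tap1, Tap2, Tapbp and B2m) and Nlrc5 fell, where 28% of all genes were called (14.1% higher and 13.9% lower). Without Psmb8 and Psmb9, which the groups where they were high admitted to the test, 5 of 8 genes rose in normoxia, and 4 rose and 1 fell in hypoxia. The median log2 fold change of these 8 genes was 0.52 in normoxia and 0.23 in hypoxia, beside -0.0025 and -0.032 over all tested genes. Hypoxia itself raised H2-K1 and H2-D1 in WT cells, where 32.4% of all genes were called (16.9% higher and 15.5% lower), and H2-K1 alone in FIH-KO cells, where 16.8% were called (8.84% higher and 8% lower). The medians of the 10 genes under hypoxia were 0.018 in WT and -0.13 in FIH-KO cells. RNA from bulk cultures cannot tell a change in the level per cell from a change in the share of cells that express a gene.

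**Figure D1:**
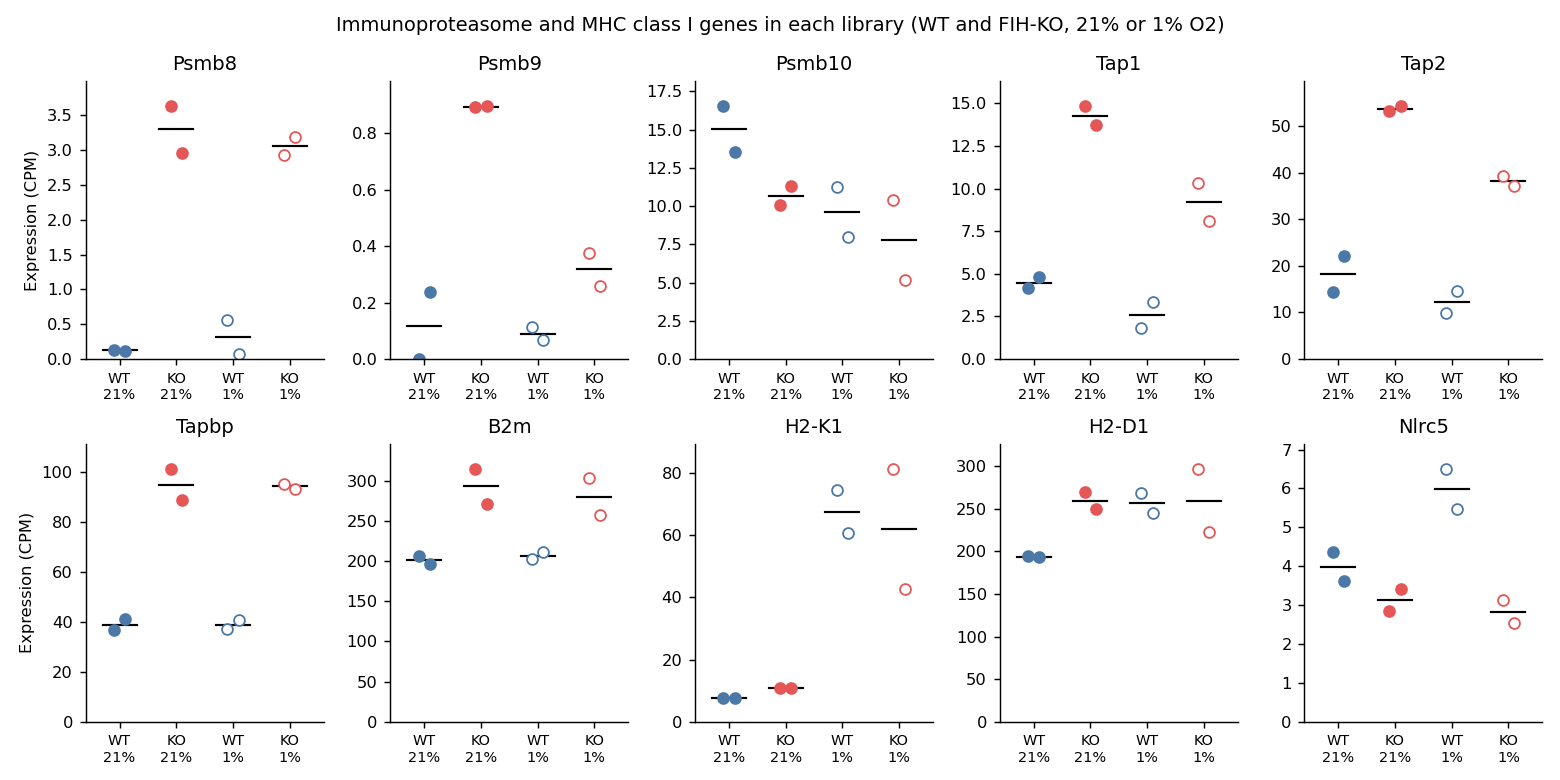
Expression (CPM, linear axis from 0, each panel with its own scale) of the 10 genes, with 1 point for each library, a bar at the mean of the 2 libraries of a group, blue for WT, red for FIH-KO, filled for 21% O2 and open for 1% O2. The FIH-KO points of Psmb8, Tap1, Tap2, Tapbp and B2m lie above the WT points at either oxygen level, and the H2-K1 points at 1% O2 lie above those at 21% O2 in either genotype.

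Psmb8 (ENSMUSG00000024338.16, plus strand of chromosome 17, 34416690 to 34420428 in GRCm39), the chymotrypsin-like subunit of the immunoproteasome, showed the steepest contrast between the genotypes. It held 2 and 2 counts in the WT normoxia libraries and 61 and 53 in the FIH-KO normoxia libraries. In hypoxia it held 10 and 1 counts in WT and 47 and 49 in FIH-KO cells. The FIH-KO libraries were thus all above the WT libraries, and the WT libraries were close to the limit of detection. The mean level in normoxia was 0.124 ± 0.0071 CPM in WT and 3.30 ± 0.47 CPM in FIH-KO cells (SD, n = 2 each), and in hypoxia 0.314 ± 0.35 and 3.06 ± 0.18 CPM (SD, n = 2 each). The ratio of the summed counts, corrected for library size, was 26.7 in normoxia (95% interval 10.1 to 99.6) and 9.04 in hypoxia (95% interval 4.83 to 18.7), where the intervals cover counting error only. The fitted log2 fold changes were 4.66 (SE 0.63, adjusted p = 0.000264, edgeR) and 3.17 (SE 0.53, adjusted p = 0.00111, edgeR), and they depend on a prior count because the WT levels are so low. With the filter of 1 count, which does not use the groups, both were also called (4.68 and 3.20). Among the 13933 genes the change in normoxia ranked 54 from the highest. In hypoxia the value was 5.37 without replicate 1 of WT hypoxia and 2.44 without replicate 2, and the call held in each case. Hypoxia gave log2 values of 1.38 in WT (SE 0.91, adjusted p = 0.254, edgeR) and -0.11 in FIH-KO cells (SE 0.39, adjusted p = 0.89, edgeR), neither of them called.

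Psmb9 (ENSMUSG00000096727.4, minus strand of chromosome 17, 34400960 to 34406738), the subunit that replaces Psmb6, was lower still. The WT normoxia libraries held 0 and 4 counts and the FIH-KO normoxia libraries 15 and 16. In hypoxia the WT libraries held 2 and 1 counts and the FIH-KO libraries 6 and 4. The 2 genotypes did not overlap within either oxygen level, although the WT library with 4 counts matched an FIH-KO library in hypoxia. In normoxia the fitted log2 value was 2.79 (SE 0.78, adjusted p = 0.0164, edgeR), for a gene that entered the test only through the FIH-KO normoxia libraries. With a filter of 1 count over all libraries, which does not use the groups, it was 2.81 (adjusted p = 0.00412, edgeR). The ratio of summed counts was 7.25 (95% interval 2.57 to 28.3). In hypoxia the ratio was 3.45 (95% interval 0.889 to 19.5), and the log2 value of 1.71 did not pass the test (SE 1.01, adjusted p = 0.214, edgeR). The call in normoxia was weak: the adjusted p was 0.0773 with DESeq2, and it was 0.156, 0.0838 and 0.0615 without replicate 1 of WT normoxia (log2 1.85), replicate 1 of FIH-KO normoxia (log2 2.77) and replicate 2 of FIH-KO normoxia (log2 2.76), while without replicate 2 of WT normoxia, which left a WT count of 0, the log2 value was 6.87.

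Psmb10 (ENSMUSG00000031897.10, minus strand of chromosome 8, 106662362 to 106665077), the trypsin-like subunit that replaces Psmb7, lies outside the MHC and was not called in any comparison with all 8 libraries and the standard filter. Its level was 16.5 and 13.5 CPM in WT normoxia, 10.1 and 11.3 in FIH-KO normoxia, 11.3 and 7.99 in WT hypoxia, and 10.4 and 5.14 in FIH-KO hypoxia. The highest values were those of the WT libraries in normoxia, and replicate 2 of FIH-KO hypoxia was the lowest. The log2 value of FIH-KO over WT was -0.49 in normoxia (SE 0.28, adjusted p = 0.218, edgeR) and -0.31 in hypoxia (SE 0.29, adjusted p = 0.462, edgeR), and that of hypoxia was -0.63 in WT (SE 0.28, adjusted p = 0.107, edgeR) and -0.46 in FIH-KO cells (SE 0.29, adjusted p = 0.314, edgeR). Replicate 1 of FIH-KO hypoxia weighed on these results: without it the hypoxia value in FIH-KO cells was -1.03 (adjusted p = 0.0353, edgeR), the FIH-KO value in hypoxia was -0.87 (adjusted p = 0.0372, edgeR) and the hypoxia value in WT cells was -0.67 (adjusted p = 0.0208, edgeR). The last of these was also called without replicate 2 of FIH-KO hypoxia (-0.64, adjusted p = 0.0259), with no filter on low counts (-0.65, adjusted p = 0.018) and with the 4 WT libraries alone (-0.63, adjusted p = 0.0246, all edgeR).

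The constitutive partners give a scale for these levels. Per kb of merged exon, Psmb8 reached 0.97 CPM in FIH-KO normoxia, whereas Psmb5, the constitutive subunit it replaces, was at 31.1 CPM per kb in the same cells. Within each library, Psmb8 made up 0.19% and 0.18% of the summed Psmb8 and Psmb5 counts in WT normoxia and 6.21% and 4.96% in FIH-KO normoxia. In hypoxia the shares were 1.04% and 0.14% in WT and 4.64% and 6.46% in FIH-KO cells. The lowest FIH-KO share had an exact 95% binomial interval of 3.43% to 6.13%, and the highest WT share one of 0.50% to 1.90%. The intervals did not overlap, but they cover counting error only, and replicates of a group can differ by more. For H2-K1 as a share of H2-K1 and H2-D1 counts, the FIH-KO hypoxia replicates had intervals of 20.46% to 22.55% and 15.02% to 17.30%. For Psmb9 the share of Psmb9 and Psmb6 counts stayed at or below 0.61% in every library. Psmb5, Psmb6 and Psmb7 were not called between the genotypes at either oxygen level. In WT cells hypoxia lowered all 3 (log2 -0.40, -0.63 and -0.64), and in FIH-KO cells it lowered Psmb6 and Psmb7 (-0.35 and -0.39). Over all tested genes, hypoxia was called as lowering 15.5% in WT and 8% in FIH-KO cells.

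**Figure D2:**
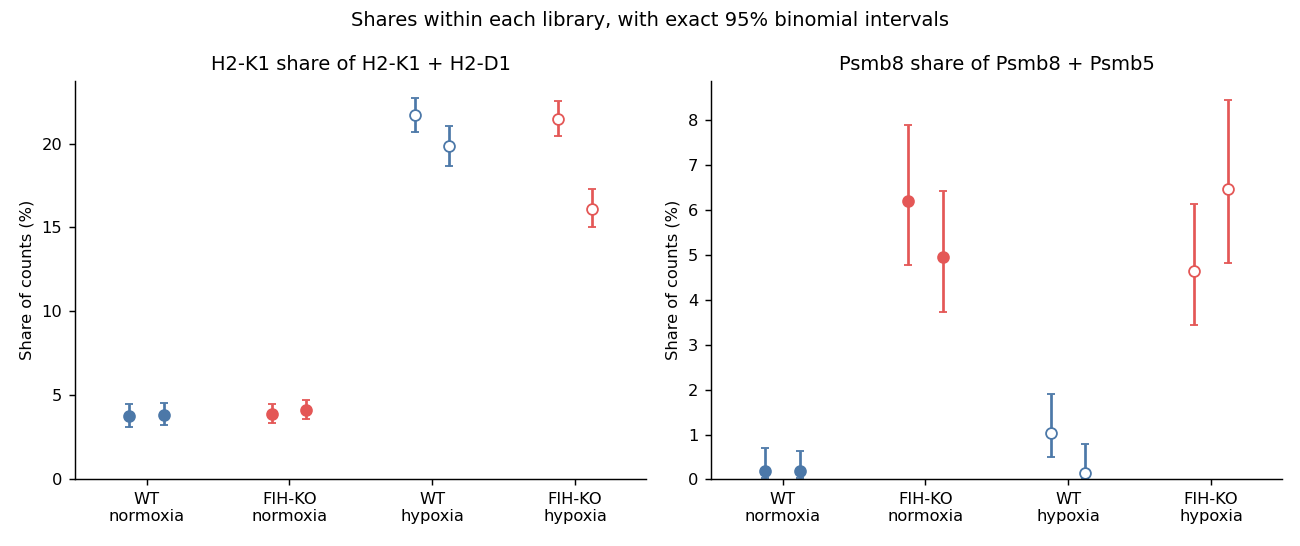
Shares of counts within each library (%, linear axis from 0), with exact 95% binomial intervals that cover counting error only: on the left H2-K1 as a share of H2-K1 and H2-D1 counts, on the right Psmb8 as a share of Psmb8 and Psmb5 counts. H2-K1 took 3.76% to 4.13% in the 4 normoxia libraries and 16.1% to 21.7% in the 4 hypoxia libraries, whereas the Psmb8 share split the libraries by genotype.

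The peptide transport and loading genes were the most uniform of the group: Tap1, Tap2 and Tapbp rose in FIH-KO cells at both oxygen levels, and each of their FIH-KO libraries lay above each WT library. Tap1 and Tap2 encode the subunits of the TAP transporter, and Tapbp encodes tapasin, which holds the empty class I molecule beside it. For Tap1 (ENSMUSG00000037321.18, plus strand of chromosome 17, 34405996 to 34416199) the CPM values were 4.18 and 4.80 in WT normoxia, 14.8 and 13.7 in FIH-KO normoxia, 1.79 and 3.35 in WT hypoxia, and 10.3 and 8.07 in FIH-KO hypoxia. Tap1 rose 3.17-fold in normoxia (log2 1.67, SE 0.26, adjusted p = 0.000777, edgeR) and 3.62-fold in hypoxia (log2 1.86, SE 0.29, adjusted p = 0.000696, edgeR).

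For Tap2 (ENSMUSG00000024339.13, plus strand of chromosome 17, 34422501 to 34435829) the values were 14.3 and 22.1 CPM in WT normoxia, 53.3 and 54.3 in FIH-KO normoxia, 9.98 and 14.6 in WT hypoxia, and 39.4 and 37.2 in FIH-KO hypoxia. The FIH-KO replicates were close to each other, and the WT replicates were further apart. Tap2 rose 2.95-fold in normoxia (log2 1.56, SE 0.205, adjusted p = 0.000253, edgeR) and 3.13-fold in hypoxia (log2 1.65, SE 0.21, adjusted p = 0.000224, edgeR). Tapbp (ENSMUSG00000024308.16, plus strand of chromosome 17, 34134873 to 34148267) was at 36.6 and 41.2 CPM in WT normoxia, 101 and 88.8 in FIH-KO normoxia, 37.1 and 40.7 in WT hypoxia, and 95.4 and 93.1 in FIH-KO hypoxia. Its level depended on genotype and hardly on oxygen: it rose 2.44-fold in normoxia (log2 1.29, SE 0.12, adjusted p = 2.63e-05, edgeR) and 2.43-fold in hypoxia (log2 1.28, SE 0.12, adjusted p = 2.77e-05, edgeR), whereas hypoxia changed it by -0.0025 in WT and -0.012 in FIH-KO cells on the log2 scale. These 6 calls held with each library left out in turn and under each alternative, with log2 values of 1.17 to 2.36 when a library was left out.

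The hypoxia values of the TAP genes were negative and short of the threshold. In WT cells Tap1 had a log2 value of -0.83 (SE 0.30, adjusted p = 0.0514, edgeR) and Tap2 one of -0.58 (SE 0.22, adjusted p = 0.0584, edgeR). In FIH-KO cells the values were -0.63 (SE 0.25, adjusted p = 0.104, edgeR) and -0.49 (SE 0.20, adjusted p = 0.111, edgeR). In WT cells these lay on the edge of a call: for each gene 4 of 7 alternatives gave an adjusted p under 0.05, and so did leaving out replicate 2 of WT hypoxia, where the values were -1.33 (Tap1, adjusted p = 0.0168) and -0.87 (Tap2, adjusted p = 0.0321, edgeR). Tap2 was also called without replicate 1 of WT normoxia (-0.90, adjusted p = 0.0178, edgeR), and both genes were called without replicate 1 or replicate 2 of FIH-KO hypoxia, at -0.87 and -0.84 for Tap1 and -0.62 and -0.59 for Tap2. The values were smaller without replicate 1 of WT hypoxia (-0.46 for Tap1 and -0.36 for Tap2, adjusted p = 0.30 and 0.32, edgeR), and Tap2 was at -0.27 without replicate 2 of WT normoxia (adjusted p = 0.473, edgeR). In FIH-KO cells, Tap2 was called only with no filter on low counts (-0.49, adjusted p = 0.0306, edgeR).

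**Figure D3:**
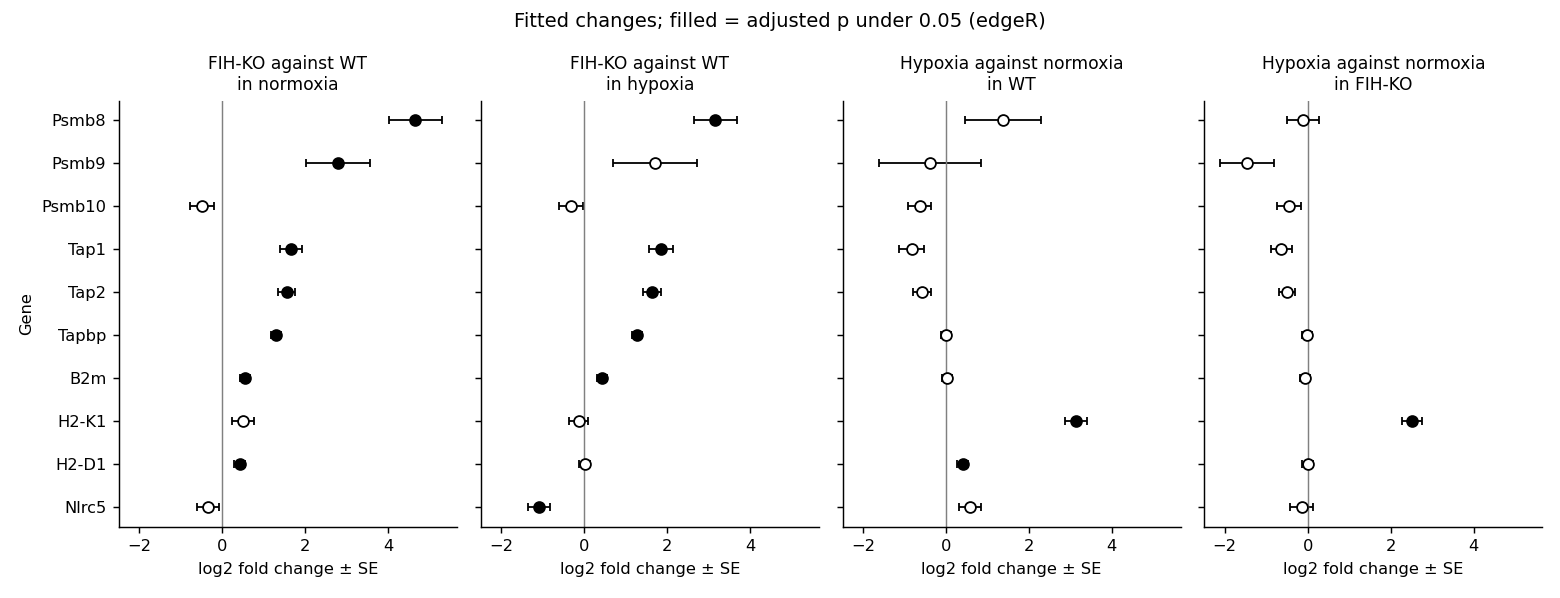
Fitted log2 fold changes with standard errors of the 10 genes in the 4 comparisons, filled where the adjusted p (edgeR) was under 0.05. In the genotype comparisons the filled points to the right of 0 are led by Psmb8, and the filled point to the left is Nlrc5 in hypoxia, whereas in the oxygen comparisons the filled points are H2-K1, at 3.14 (WT) and 2.52 (FIH-KO), and H2-D1 in WT cells.

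Psmb8, Tap2 and B2m, which were higher with FIH-KO at both oxygen levels, have 250 bases before their annotated start that overlap no annotated exon, and these are shown as the sequence next to genes that moved together. They were read from GRCm39 on the strand of the gene, at chr17:34416440-34416689 for Psmb8, chr17:34422251-34422500 for Tap2 and chr2:121977707-121977956 for B2m. Capitals mark a match to 1 of the motifs searched.
Psmb8: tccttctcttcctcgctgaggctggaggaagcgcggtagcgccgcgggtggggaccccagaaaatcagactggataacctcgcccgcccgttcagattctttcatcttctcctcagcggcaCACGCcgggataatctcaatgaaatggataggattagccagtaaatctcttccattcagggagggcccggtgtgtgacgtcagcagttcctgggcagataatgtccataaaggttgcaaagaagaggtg
Tap2: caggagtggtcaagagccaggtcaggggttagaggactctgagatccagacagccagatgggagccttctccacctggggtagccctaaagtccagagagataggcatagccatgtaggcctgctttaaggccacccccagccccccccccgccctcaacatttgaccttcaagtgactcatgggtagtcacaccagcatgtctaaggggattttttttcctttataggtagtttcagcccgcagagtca
B2m: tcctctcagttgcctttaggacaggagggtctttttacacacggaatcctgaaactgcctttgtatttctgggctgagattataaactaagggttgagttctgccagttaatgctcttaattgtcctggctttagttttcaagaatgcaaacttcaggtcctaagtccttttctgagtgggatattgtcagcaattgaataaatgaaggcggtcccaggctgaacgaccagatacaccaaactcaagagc
The motifs, searched on both strands from 250 bases before to 50 after the start of each gene's canonical transcript, were GAAA, 2 free bases and GAAA (the core of the interferon-stimulated response element), TTCNNNGAA (the GAS element bound by STAT dimers), GGG, 2 free bases and TTCCC (a kB site), ATTGG (the CCAAT box), and ACGTG or GCGTG (the core of the hypoxia response element). Matches to the last on opposite strands can overlap. The capitals in the Psmb8 sequence are a core of the last kind on the opposite strand, from base -129 to base -125 counted from the start, and the sequences of Tap2 and B2m held no match. The GAS element was present in 8.81% of 21770 promoters and in 2 of the 10 genes, Psmb8 and H2-D1. The letters searched for the interferon-stimulated element were matched in 3.84% of all promoters and in Nlrc5 alone of the 10 genes. The CCAAT box was found in 3 of the 10 genes (39.9% of all promoters) and the hypoxia response element core in 6 (48.0% of all promoters and 62.5% of those of tested genes). The GAS match of H2-D1 lies at bases -33 to -25. Those of Psmb8 (GAS, bases 10 to 18, in chr17:34416690-34416718) and Nlrc5 (interferon-stimulated element, bases 2 to 11, in chr8:95161011-95161040) lie just after the start and are shown with the bases around them.
Psmb8 GAS: gggttgaggaTTCAAGGAAggagcgcgca
Nlrc5 ISRE: cagtggccacTTTCAGTTTCcacagagcgc
The start of the canonical transcript need not be the start used in LLC cells, and a match does not show that a factor binds. Only these fixed letters were searched, so the lack of a match does not show that a gene lacks a working element.

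B2m (ENSMUSG00000060802.9, plus strand of chromosome 2, 121977957 to 121983594), the light chain shared by all class I molecules, had the highest level per kb of exon among the 10 genes, at 95.6 to 139 CPM per kb over the groups. Its values were 207 and 196 CPM in WT normoxia, 315 and 271 in FIH-KO normoxia, 202 and 211 in WT hypoxia, and 303 and 257 in FIH-KO hypoxia. No FIH-KO library overlapped a WT library. B2m rose 1.46-fold in normoxia (log2 0.54, SE 0.12, adjusted p = 0.00559, edgeR) and 1.35-fold in hypoxia (log2 0.44, SE 0.12, adjusted p = 0.0171, edgeR), and hypoxia changed it by 0.038 (WT) and -0.064 (FIH-KO). The calls rested on small margins: the one in normoxia was lost without replicate 1 of WT (0.55, adjusted p = 0.053), replicate 2 of WT (0.48, adjusted p = 0.0755) or replicate 1 of FIH-KO (0.41, adjusted p = 0.0703), and the one in hypoxia without replicate 1 of WT (0.44, adjusted p = 0.0884), replicate 2 of WT (0.47, adjusted p = 0.0667) or replicate 1 of FIH-KO (0.36, adjusted p = 0.0527, all edgeR). Both held without replicate 2 of FIH-KO in the same condition.

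H2-D1 (ENSMUSG00000073411.13, plus strand of chromosome 17, 35481691 to 35486475) encodes a classical class I heavy chain. Its lowest level was that of WT cells in normoxia, at 194 and 193 CPM. The other groups lay higher, with 270 and 249 CPM in FIH-KO normoxia, 269 and 245 in WT hypoxia, and 297 and 222 in FIH-KO hypoxia, and they overlapped each other. H2-D1 rose with FIH-KO in normoxia (log2 0.42, SE 0.14, adjusted p = 0.0344, edgeR) and with hypoxia in WT cells (log2 0.41, SE 0.14, adjusted p = 0.0365, edgeR), comparisons that share the WT normoxia libraries. The FIH-KO value in hypoxia was 0.014 (SE 0.13, adjusted p = 0.951, edgeR), and the hypoxia value in FIH-KO cells was -4.1e-05 (SE 0.13). Each call was lost without any 1 of the 4 normoxia libraries or the 2 WT hypoxia libraries, with adjusted p values of 0.0506 to 0.194 (log2 0.34 to 0.45) for FIH-KO and 0.0588 to 0.241 (log2 0.30 to 0.47) for hypoxia.

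H2-K1 (ENSMUSG00000061232.17, minus strand of chromosome 17, 34214987 to 34219321), the other classical heavy chain measured, was called in both oxygen comparisons and in neither genotype comparison. The WT libraries held 118 and 131 counts in normoxia and 1330 and 887 in hypoxia. The FIH-KO libraries held 184 and 192 counts in normoxia and 1301 and 657 in hypoxia. Every hypoxia library was thus far above every normoxia library, while the genotypes overlapped in hypoxia. The mean level went from 7.67 ± 0.13 to 67.6 ± 9.89 CPM in WT and from 10.9 ± 0.15 to 62.0 ± 27.2 CPM in FIH-KO cells (SD, n = 2 each), and replicate 2 of FIH-KO hypoxia, at 42.8 CPM, was the lowest of the hypoxia libraries. H2-K1 rose 8.80-fold with hypoxia in WT (log2 3.14, SE 0.26, adjusted p = 1.14e-05, edgeR) and 5.72-fold in FIH-KO cells (log2 2.52, SE 0.25, adjusted p = 6.94e-05, edgeR). These changes ranked 41 and 54 from the top of the 10576 tested genes that averaged 50 counts or more. The calls held with each library left out, at 2.94 to 3.28 in WT and 2.004 to 2.899 in FIH-KO cells.

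Between the genotypes H2-K1 was at 0.50 in normoxia (SE 0.27, adjusted p = 0.193, edgeR) and at -0.12 in hypoxia (SE 0.23, adjusted p = 0.726, edgeR). The value in normoxia passed the threshold without replicate 1 or replicate 2 of FIH-KO hypoxia (0.47 and 0.50, adjusted p = 0.0377 and 0.0284, edgeR) and with no filter on low counts (0.52, adjusted p = 0.0358, edgeR). The value in hypoxia depended on replicate 1 of FIH-KO, without which it was -0.62 (adjusted p = 0.0153, edgeR), and its sign turned without replicate 2 of FIH-KO hypoxia (0.27) or replicate 1 of WT hypoxia (0.067). Within a library, H2-K1 made up 3.76%, 3.86%, 3.90% and 4.13% of the summed H2-K1 and H2-D1 counts in the normoxia libraries of both genotypes. In hypoxia the shares were 21.7% and 19.8% in WT and 21.5% and 16.1% in FIH-KO cells. The lowest hypoxia share had an exact 95% binomial interval of 15.02% to 17.30%. Per kb of exon H2-K1 remained below H2-D1 in each group, with 21.2 against 85.9 CPM per kb in WT hypoxia.

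The class I genes resemble each other in sequence. Of the windows of 50 bases in the canonical transcript, 8.79% of H2-K1 and 14.2% of H2-D1 were found in a transcript of another gene, and with windows of 100 bases the shares were 0% and 4.61%. How reads with several mapping places were treated is not given in the sources used here, so a part of the counts of the class I genes is uncertain. Psmb8, Psmb9, Psmb10, B2m and Nlrc5 shared no window of either length with another gene. Among genes of the count table, exons of Psmb9 and Tap1 overlap on opposite strands, as do those of Psmb8 and Tap2 with Gm20496. The same holds for Tap2 with Gm15821, Tapbp with Gm19412 and Nlrc5 with 9330175E14Rik, and Tapbp overlaps Zbtb22 on the same strand. Libraries were stranded, but the strand setting of the counting is not given in the sources used here.

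The H2-K1 pattern was compared with the other class I and class I-like genes. Of 20 such genes, 19 were in the table and 10 were tested. Hypoxia raised 3 of these 10 in both genotypes, H2-T23, H2-Q4 and H2-K2, and lowered 4 in WT and 1 in FIH-KO cells. Over all tested genes 16.9% were called as higher and 15.5% as lower in WT cells, and 8.84% and 8% in FIH-KO cells. H2-Q4, H2-K2 and H2-T22 were chosen for naming after their values were seen. H2-T23, which encodes the Qa-1 molecule recognized by NK cell receptors, was at 5.98 and 5.04 CPM in WT normoxia, 25.2 and 18.8 in WT hypoxia, 6.67 and 5.99 in FIH-KO normoxia, and 13.7 and 9.05 in FIH-KO hypoxia. It rose by 2.001 in WT (SE 0.24, adjusted p = 0.000123, edgeR) and 0.85 in FIH-KO cells (SE 0.24, adjusted p = 0.0316, edgeR), and in hypoxia it was lower in FIH-KO than in WT cells (-0.95, SE 0.23, adjusted p = 0.00885, edgeR). The difference between these hypoxia responses was not called (-1.15, adjusted p = 0.503, edgeR).

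H2-Q4 went from 5 and 6 counts to 45 and 31 with hypoxia in WT cells and from 32 and 40 to 81 and 52 in FIH-KO cells (log2 2.75 and 1.02, adjusted p = 0.000707 and 0.0445, edgeR). It was also higher in FIH-KO than in WT cells in normoxia (log2 2.59, SE 0.45, adjusted p = 0.00122, edgeR). H2-K2 went from 14 and 11 counts to 74 and 74 in WT and from 20 and 20 to 44 and 43 in FIH-KO cells (log2 2.56 and 1.26, adjusted p = 0.000223 and 0.0216, edgeR). These counts are low, and 24.2% of the windows of 50 bases of H2-Q4 and 30.4% of those of H2-T23 were shared with other genes. This share was not computed for H2-K2. Not all class I genes followed: H2-T22 fell with hypoxia in WT cells (log2 -0.74, adjusted p = 0.00661, edgeR), and so did the class I-like genes Cd1d1, Mr1 and Fcgrt (-1.71, -1.02 and -0.91, adjusted p = 0.0208, 0.022 and 0.0161, edgeR). Fcgrt, the neonatal Fc receptor that pairs with B2m, and Mr1, which presents metabolites to MAIT cells, rose with FIH-KO at both oxygen levels, Fcgrt by 2.71 and 2.66 (adjusted p = 1.01e-05 and 1.99e-05) and Mr1 by 0.936 and 1.199 (adjusted p = 0.0249 and 0.0108), whereas Cd1d1, which presents lipids to NKT cells, fell at both (-2.96 and -2.18, adjusted p = 0.00242 and 0.0427, all edgeR).

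**Figure D4:**
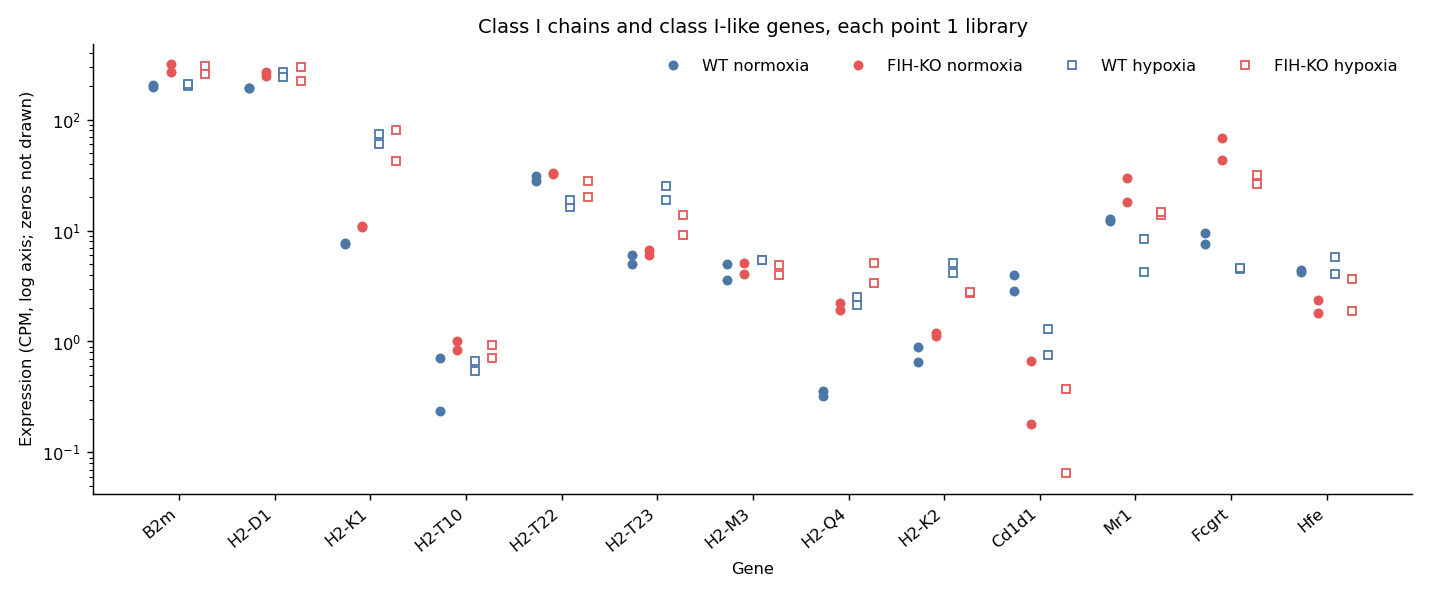
Expression (CPM, log axis, libraries with 0 counts not drawn) of B2m, H2-D1, H2-K1 and the 10 tested class I or class I-like genes, 1 point for each library, blue for WT, red for FIH-KO, filled circles for normoxia and open squares for hypoxia. H2-K1, H2-T23, H2-Q4 and H2-K2 have their open squares above the filled circles of the same genotype, and Fcgrt has its red points, from 26.4 CPM up, above its blue points, which reach 9.60 CPM.

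Of the 12 tested class I or class I-like heavy chain genes, 3 held a kB match between 250 bases before and 50 after the start, H2-K1, H2-Q4 and H2-K2, beside 1.81% of all promoters. The matches, in capitals with 10 bases on each side and read from GRCm39 on the strand of the gene, are shown because these 3 genes and H2-T23 were the class I genes raised by hypoxia in both genotypes. H2-T23 held no kB match in its window.
H2-K1 kB, minus strand of chr17:34219413-34219442: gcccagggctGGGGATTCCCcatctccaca
H2-Q4 kB, plus strand of chr17:35598410-35598439: atcaggggtgGGGATTTCCCatctccccag
H2-K2 kB, minus strand of chr17:34197937-34197966: gcccagggctGGGGATTCCCcatctggtca
The match lies at bases -111 to -102 from the annotated start of H2-K1, -166 to -157 for H2-Q4 and -192 to -183 for H2-K2. The genes were picked after their values were seen, they are related in sequence, and the match is a description of the letters.

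Nlrc5 (ENSMUSG00000074151.14, plus strand of chromosome 8, 95160984 to 95253900), which encodes the NOD-like receptor that acts as the transactivator of class I genes, did not rise in FIH-KO cells. Its CPM values were 4.37 and 3.61 in WT normoxia, 2.86 and 3.41 in FIH-KO normoxia, 6.50 and 5.46 in WT hypoxia, and 3.12 and 2.54 in FIH-KO hypoxia. The WT hypoxia libraries were the highest, and in each oxygen condition both WT libraries were above both FIH-KO libraries. Nlrc5 fell in FIH-KO cells in hypoxia (log2 -1.08, SE 0.27, adjusted p = 0.0108, edgeR). The value was -0.34 in normoxia (SE 0.27, adjusted p = 0.377, edgeR), and hypoxia in WT cells gave 0.59 (SE 0.26, adjusted p = 0.104, edgeR). The call in hypoxia was lost without replicate 1 of WT hypoxia (-0.91, adjusted p = 0.089, edgeR) or replicate 2 of FIH-KO hypoxia (-0.94, adjusted p = 0.052, edgeR). Over the 8 libraries, 4 groups of 2, the Pearson correlation of log2 CPM between Tap1 and Tap2 was 0.98, and that between Nlrc5 and Tap2 was -0.88. Nlrc5 was at 0.01 with H2-D1, 0.29 with H2-K1 and 0.35 with Psmb10, and at -0.64 to -0.88 with the rest of the 10 genes. Of the 8 factors that bind class I promoters with it (the RFX, NF-Y and CREB families), the one called between the genotypes was Creb1, which fell in FIH-KO cells in normoxia (-0.52, adjusted p = 0.0101, edgeR). Hypoxia raised Rfx5 in WT cells (log2 1.03, SE 0.21, adjusted p = 0.00291, edgeR).

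The effect of FIH-KO was compared between the oxygen levels in the same model. None of the 10 genes was called, and 0 of all 13933 genes were called by edgeR (0%), with 925 of them at an unadjusted p under 0.05 and 0 of the 10 genes among these. With DESeq2 40 genes were called, and none of the 8 of the 10 genes that had a DESeq2 adjusted p was among them. The lowest adjusted p among the 10 genes was that of H2-D1 (difference -0.41, SE 0.19, adjusted p = 0.749, edgeR), and the difference was -0.74 (SE 0.38) for Nlrc5 and -0.62 (SE 0.35) for H2-K1. For Psmb8 it was -1.49 with a standard error of 0.99, so that only a very large difference could have been detected at these counts, whereas for Tapbp it was -0.0090 with a standard error of 0.17.

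The other genes of the pathway were counted by lists, chosen with earlier results of these data known. Over 57 tested genes of these lists, FIH-KO raised 11 and lowered 10 in normoxia and raised 10 and lowered 11 in hypoxia, with medians of 0.087 and 0.047, where the shares over all tested genes were 15.2% higher and 13% lower in normoxia and 14.1% and 13.9% in hypoxia. Among the 13 interferon receptor and JAK-STAT genes counted, all tested, 6 rose and 0 fell in normoxia and 6 rose and 1 fell in hypoxia (medians 0.33 and 0.34). Stat2, a subunit of the interferon-stimulated factor ISGF3, rose by 1.23 and 1.22 (SE 0.19 each, adjusted p = 0.000665 and 0.000738, edgeR), with 14.7 to 16.4 CPM in the WT and 28.5 to 41.8 CPM in the FIH-KO libraries. Ifngr1, a chain of the interferon gamma receptor, rose by 0.91 and 0.79, and the kinase gene Jak1 by 0.87 and 0.84 (adjusted p = 0.000807, 0.00188, 0.000698 and 0.000945, edgeR). Irf1 and Irf2, transcription factors that bind interferon-responsive promoters, rose by 0.65 and 0.64 and by 0.55 and 0.47, and Socs3, an inhibitor of JAK signaling, by 0.92 and 0.68. Jak2 fell in hypoxia (-0.44, adjusted p = 0.0173, edgeR). The 9 interferon genes examined were not detected in any library, except for 1 count of Ifna2 in WT hypoxia, so their level lay under the limit that 3 counts in a library set.

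**Figure D5:**
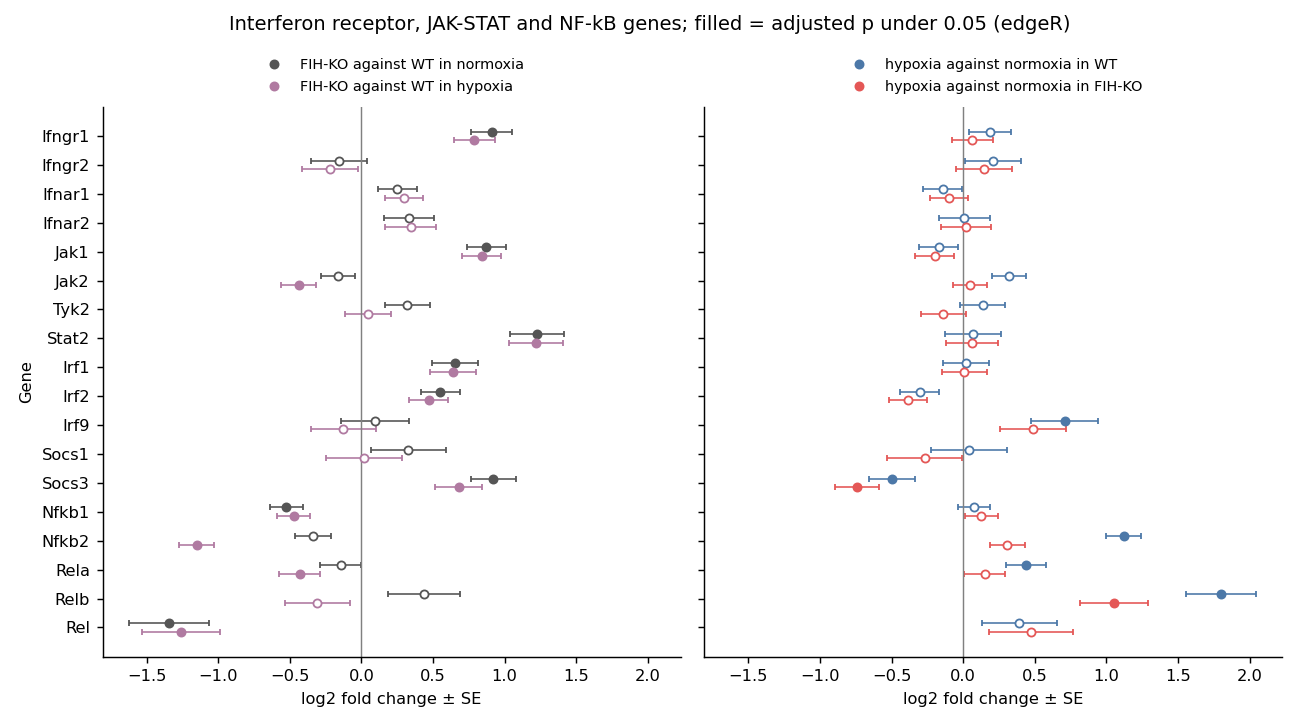
Log2 fold changes with standard errors of 13 interferon receptor and JAK-STAT genes and 5 NF-kB subunits, on the left FIH-KO against WT in normoxia (grey) and hypoxia (purple), on the right hypoxia against normoxia in WT (blue) and FIH-KO (red) cells, filled where the adjusted p (edgeR) was under 0.05. On the left Stat2 lies at 1.23 and 1.22 and Rel at -1.34 and -1.26, and on the right Relb lies at 1.80 and 1.05.

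No NF-kB subunit was called as higher in FIH-KO cells. Of the 5, FIH-KO lowered 2 in normoxia (Nfkb1 and Rel) and 4 in hypoxia (these, Nfkb2 and Rela), where 13% and 13.9% of all tested genes were called as lower. Rel was at -1.34 and -1.26 (adjusted p = 0.00413 and 0.00498, edgeR). Hypoxia raised Nfkb2, Rela and Relb in WT cells and Relb in FIH-KO cells, where 16.9% and 8.84% of all tested genes were called as higher. Relb, the partner of the p52 product of Nfkb2, went from 5.85 and 4.56 to 18.9 and 17.3 CPM in WT (log2 1.80, adjusted p = 0.000267, edgeR) and from 7.15 and 6.94 to 18.1 and 11.1 CPM in FIH-KO cells (log2 1.05, adjusted p = 0.0111, edgeR). Nfkb2 went from 65.9 and 71.9 to 156 and 144 CPM in WT cells (log2 1.12, adjusted p = 6.20e-05, edgeR) and from 51.9 and 57.3 to 73.9 and 61.3 CPM in FIH-KO cells (log2 0.31, adjusted p = 0.112, edgeR). The difference of these responses, -0.81, was not called by edgeR (adjusted p = 0.241) and was called by DESeq2 (adjusted p = 0.0302).

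Of the proteasome activators and assembly genes, Psme3 fell in FIH-KO cells at both oxygen levels (-0.67 and -0.63, adjusted p = 0.00148 and 0.0022, edgeR), Psme4 fell in normoxia (-0.46, adjusted p = 0.00679, edgeR), and Psme2, a subunit of the interferon-inducible PA28 cap, rose in hypoxia (0.53, adjusted p = 0.0217, edgeR). Psme1, the other subunit of that cap, was at 0.21 and 0.28 and was not called. Of the 7 genes of peptide trimming and class I folding, Pdia3, which encodes ERp57 of the loading complex, rose at both oxygen levels (0.34 and 0.45, adjusted p = 0.0469 and 0.0153, edgeR), and the chaperone gene Canx fell at both (-0.34 and -0.46, adjusted p = 0.0392 and 0.0108, edgeR). Erap1, the aminopeptidase that trims the peptides, was at 0.0067 and 0.12 and was not called. In the Polycomb complex PRC2, which is known to silence class I genes in tumors, Ezh2 and Suz12 fell at both oxygen levels (-0.45 and -0.70 for Ezh2, -0.55 and -0.51 for Suz12) and Ezh1 rose in normoxia (0.58, adjusted p = 0.0114, edgeR). Of the 11 class II genes 2 were tested, H2-DMa and H2-DMb1, named after their values were seen, with FIH-KO values of 0.95 and 0.71 in normoxia that were not called (adjusted p = 0.0597 and 0.328, edgeR), while H2-Aa and H2-Ab1 had no count and Ciita, the class II transactivator, had at most 2 counts in any library. Cd74, which was not tested, held 30 counts in replicate 1 of FIH-KO hypoxia, 2 in replicate 2, and 0 to 10 in the libraries of the other groups.

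Markers of immune cells were set beside these results, since such cells express the immunoproteasome and class I genes strongly. Of 12 markers, 7 held at most 3 counts in each library, Ptprc among them, and 4 of these 7 were at 0 in all libraries. Their summed level was 7.84 to 8.53 CPM in WT normoxia, 13.9 to 14.3 in FIH-KO normoxia, 18.4 to 19.1 in WT hypoxia and 15.6 to 17.1 in FIH-KO hypoxia, carried by Cd68, Itgax, Csf1r and Lyz2, of which all but Lyz2 were named after their values were seen. Lyz2 held 2 to 9 counts in the WT libraries and 30 to 107 in the FIH-KO libraries (log2 3.74 and 3.75, adjusted p = 0.000442 and 0.001, edgeR). It passed the filter only through the FIH-KO libraries, in which it was high. The other tested markers did not rise with FIH-KO: Itgax was lower in FIH-KO cells in hypoxia (-0.67, adjusted p = 0.0353, edgeR) and was at -0.25 in normoxia, Cd68 was at 0.70 and -0.12, and Csf1r at -0.92 and -0.80. The part of these markers in the results was not tested. With hypoxia, Csf1r went from at most 2 counts to 10 to 53, and Itgax rose in both genotypes (1.13 and 0.72). Csf1r passed the filter only through the hypoxia libraries, in which it was high. Of the 8 stromal and endothelial markers, 5 were tested, and their summed level was 9.49 to 67.3 CPM over the libraries. Acta2, a smooth muscle actin, rose with FIH-KO by 3.10 and 2.96 (adjusted p = 0.00335 and 0.0498, edgeR), while Pdgfra and Cdh5 were lower in FIH-KO than in WT cells in hypoxia (-0.87 and -2.62, adjusted p = 0.0324 and 0.00507, edgeR). Hypoxia lowered Acta2 in both genotypes and raised the endothelial gene Cdh5 in WT cells, from 2 and 1 counts to 35 and 18. Cdh5 passed the filter only through the WT hypoxia libraries, in which it was high. Of the 7 genes listed as carcinoma markers 4 were tested: Krt8 rose with FIH-KO (1.02 and 1.00) and so did Vim (0.52 and 0.58, adjusted p = 0.0173 and 0.0102, edgeR), and Krt19 rose with hypoxia (3.20 in WT and 3.74 in FIH-KO cells). Krt18 and Krt19 were at -0.047 and -0.049 with FIH-KO in normoxia (adjusted p = 0.867 and 0.964, edgeR). The mean level of Krt18 was 187 CPM in WT normoxia, 125 in WT hypoxia, 181 in FIH-KO normoxia and 135 in FIH-KO hypoxia. The part of the stromal, endothelial and carcinoma markers in the results of the 10 genes was likewise not tested.

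Of the 10 genes, 7 lie in the MHC of chromosome 17, between 34134873 and 35486475. The 54 other tested genes of that interval that are neither class I nor class II genes had medians of 0.11 (normoxia) and 0.078 (hypoxia) for the log2 fold change between the genotypes, with 10 higher and 1 lower in normoxia and 8 higher and 0 lower in hypoxia. The 702 tested genes of the whole chromosome 17, without the 10 genes, had medians of 0.16 and 0.12. Of these 702 genes, 19.8% were called as higher and 3.42% as lower in normoxia, and 17.2% and 5.13% in hypoxia. Over all tested genes the shares were 15.2% and 13% in normoxia and 14.1% and 13.9% in hypoxia. Psmb8, Tap1, Tap2 and Tapbp were at 1.28 or more at both oxygen levels. Among the neighbors, chosen for naming after their values were seen, Btnl7-ps was at 2.05 and 1.95 (adjusted p = 0.001 and 0.0013), Tnxb at 3.09 and 1.21 (adjusted p = 0.0002 and 0.0309) and Notch4 at 1.88 and 1.35 (adjusted p = 0.0336 and 0.0986, all edgeR). The 1112 other tested genes of chromosome 2, where B2m lies, had medians of 0.23 and 0.21, beside 0.54 and 0.44 for B2m, and 28.6% of them were called as higher in normoxia. The part of such a shift of the chromosome in the B2m result, or in the results of the 7 genes on chromosome 17, was not tested. On chromosome 8, where Psmb10 and Nlrc5 lie, the medians were -0.043 and -0.12. Zbtb22, which overlaps Tapbp, was at 0.41 and 0.64 (adjusted p = 0.066 and 0.010, edgeR). Gm19412, named after its values were seen, overlaps Tapbp on the opposite strand and was at 1.29 and 0.87 (adjusted p = 0.0428 and 0.1309, edgeR). The part of these overlaps in the Tapbp result was not tested.

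Among the 10 genes, the profile over the 8 libraries was most like the mean z score of the group for B2m (Pearson r = 0.95), Psmb8 (0.91) and Tapbp (0.90), and least like it for H2-K1 (0.16), Psmb10 (-0.25) and Nlrc5 (-0.56). These correlations describe 4 groups of 2 libraries that share a genotype or an oxygen level, and each of these genes is part of the mean. Outside the lists, the 5 genes averaging 50 counts or more whose profile was most like that of the group were Snx21 (r = 0.98), Kcnn4 (0.98), Osbpl2 (0.98), Slc66a2 (0.98) and Fbxo25 (0.98). Kcnn4, which encodes a calcium-activated potassium channel, was at 34.3 and 37.9 CPM in WT normoxia and hypoxia and at 71.8 and 58.6 CPM in FIH-KO cells.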

How the data were processed

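RNA from 8 libraries of LLC cells (4 groups of 2) was sequenced by the authors from stranded poly(A) libraries, aligned with STAR to GRCm39 and counted per gene with HTSeq, and the deposited values are raw counts. The labels name GRCm38 (mm10) beside GRCm39 (mm39), and GRCm39, given in the study's methods, was used for positions. Groups follow the sample labels, since the series design text lists the WT hypoxia group more than once and no FIH-KO hypoxia group. The annotation release, the strand setting and the treatment of multi-mapping reads are not given in the sources used here. Library totals limit the precision of genes such as Psmb9, with 0 to 16 counts.

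From these counts, genes were filtered with filterByExpr (minimum count 10, total 15), scaled by TMM and fitted with 1 mean per group in edgeR 4.0.16 (R 4.3.3). Quasi-likelihood tests were adjusted by Benjamini-Hochberg over 13933 genes, with a threshold of 0.05. On simulated counts for FIH-KO against WT in normoxia (13933 genes), 67 of 100 genes changed by 1 and 88 of 100 changed by 2 on the log2 scale were called, and 4 unchanged genes. No other genes were changed, and they were drawn at any level, whereas 28.2% of genes were called in the data. These rates therefore need not hold for the data or for low genes such as Psmb8 and Psmb9. Alternatives were DESeq2 1.42.0, other size factors and filters, fits of 4 libraries, a replicate block and each library left out. Intervals are exact, at 95%, and cover counting error only.

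The 10 genes and the lists were chosen with earlier results of these data known. Genes eligible to be named were the 10 genes, any gene of lists of up to 9, from longer lists those called in both FIH-KO comparisons and a few fixed markers, Hif1an, and the 5 genes most alike. The text says where a gene was named after its values were seen. Positions, exon lengths and promoters came from the GRCm39 genome and annotation, in which 52610 of 53700 gene identifiers were found. No protein sequence was used here. A gene of the interferon signaling list is not reported here and was left out of its counts.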

Additional observations from a re-analysis of the deposited data

How the results depend on the processing

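The number of the 10 genes called for FIH-KO was 7 in normoxia and 6 in hypoxia, and over the 7 alternatives it was 5 to 8 and 5 to 6; Psmb8 and Psmb9 were left untested when 10 counts were required in every library. For hypoxia in WT cells the count of 2 became 4 with DESeq2, 4 with upper-quartile factors and 5 with no filter beyond 1 count, and in FIH-KO cells the count of 1 became 2 with no filter. With each library left out, the counts ran from 4 to 8, 4 to 7, 1 to 5, 1 to 2 and, for the difference of the effects, 0 to 0. Of 324 single-gene values under the other settings, 299 kept their direction and side of the threshold, 12 reversed, 12 gained a call and 1 lost it. Of 400 with a library left out, 323 kept both, 40 reversed, 14 gained a call and 23 lost it. The cause of the changes was not tested.

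Reversals under the other settings all concerned values near 0. For hypoxia in FIH-KO cells, H2-D1 was at 0.00126 (DESeq2), 0.00127 (RLE size factors), 0.005152 (upper quartile), 0.003657 (no filter), 0.02885 (10 counts in every library) and 0.02837 (4 libraries), and Tapbp at 0.01769 (10 counts in every library) and 0.01731 (4 libraries). In WT cells Tapbp was at 0.001142 (4 libraries), and the difference of the effects for Tapbp was 0.01884 (upper quartile), 0.01018 (no filter) and 0.02157 (10 counts in every library).

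With a library left out, the FIH-KO value in hypoxia ran from -0.8689 to 0.1043 for Psmb10, -0.6191 to 0.2696 for H2-K1 and -0.1678 to 0.2122 for H2-D1. The hypoxia value in WT ran from -0.8198 to 2.114 for Psmb8, -1.336 to 3.683 for Psmb9, -0.1295 to 0.04851 for Tapbp and -0.03713 to 0.03298 for B2m. In FIH-KO cells it ran from -0.2235 to 0.06333 for Psmb8, -0.0808 to 0.1039 for Tapbp, -0.1607 to 0.06413 for B2m, -0.1975 to 0.1886 for H2-D1 and -0.28 to 0.009498 for Nlrc5. The difference of the effects ran from -2.221 to 0.7357 for Psmb8, -0.3562 to 0.5906 for Psmb10, -0.1504 to 0.691 for Tap1, -0.2051 to 0.4249 for Tap2, -0.03982 to 0.1463 for Tapbp and -0.1591 to 0.06557 for B2m. Where this left a group with 1 library, that library was assumed to vary like the others.

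Libraries of different groups with the same replicate number were correlated at -0.0104 to 0.193 in their deviations. These values are low, but they cannot show whether the numbers pair the libraries. With the replicate block 7, 6, 3, 1 and 0 of the genes were called. Over all tested genes the count for the difference of the effects was 0, and it was 40 with DESeq2, 143 with no filter and 5 with the replicate block; the count for hypoxia in FIH-KO cells was 2345, and 1289 with only the 4 libraries.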
